A study of Mus musculus with 6 samples.

Results

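Mitosis-marker cardiomyocytes (CMs) are the sorted CMs in which several genes of the G2 and M phases were detected in the same cell. A cell was counted as a CM when it had at least 1 unique molecular identifier (UMI, which counts 1 captured RNA molecule) of each of Tnni3, Tnnt2, Actc1 and Tnnc1, and as a mitosis-marker CM when 4 or more of 10 further genes had a UMI as well, namely Ccnb1, Cdc20, Plk1, Cenpe, Cenpf, Aspm, Hmmr, Nek2, Troap and Pif1. By this rule 1908 of 30733 CMs, among 31156 cells, were mitosis-marker CMs. Another 24261 CMs had no UMI of any of the 10 markers and are called marker-negative, and 4564 had 1 to 3 markers. The cells came from the left ventricles of C57BL/6J mice before birth at E16.5 and after birth at P1 and P5, and no transgene, mutation or drug is given for any group. They were fixed in methanol, stained for myosin heavy chain 1 (MYH1) and for DNA with Hoechst, and sorted into diploid (2n) and tetraploid (4n) CMs, giving 6 droplet-based scRNA-seq libraries, 1 for either ploidy at each age, which are named by age and ploidy (P5-4n, for instance). For the E16.5-4n library 1 label gives the age as E16.6. Each library pooled cells of 3 sorts, each from its own litter, so that litters cannot be told apart, and per the study's methods the sorts were made by age, so that the 2n and 4n libraries of an age are not independent of each other. The libraries held 13213992 to 19714177 UMIs. With 1 library per condition no condition has a replicate, and no test was made between conditions, nor a fit of ploidy over the 3 ages: values are given with exact 95% intervals, which cover counting error only. A DNA content of 4n is shared by diploid CMs in G2 and M, by binucleated CMs and by CMs with a tetraploid nucleus, and the sort does not separate them.

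Cells enter mitosis when cyclin-dependent kinase 1 is switched on by B-type and A-type cyclins, and they leave it when the anaphase-promoting complex, with its activator encoded by Cdc20, tags cyclin B1 and securin for destruction. In between, condensins and topoisomerase compact the chromosomes, kinetochores such as the one that holds the proteins of Cenpe and Cenpf attach them to the spindle, and the contractile ring built by anillin, Ect2 and the centralspindlin subunit Racgap1 cleaves the cell. Fetal mouse CMs divide in this way, while around birth many CMs replicate their DNA without completing the division, which leaves binucleated or polyploid cells. CMs mature over the same days, exchanging fetal for adult myosins and glucose for fatty acids as fuel.

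The promoters of mitotic genes are shown because these genes are expressed together in the mitosis-marker CMs, and many of their promoters share 2 short elements. The element with the letters TTTGAA, which read TTCAAA when taken from the opposite strand, is the core of the cell cycle genes homology region, and CCAAT, which there reads ATTGG, is the box bound by nuclear factor Y. Both strands were searched in the window from 250 bases before to 50 bases after the gene start in the RefSeq annotation of GRCm38.p6, and matches of the 2 elements can overlap by shared letters. Of 27025 such promoters of the mouse genome, 18.1% held TTTGAA, 37.9% held CCAAT and 7.12% held both. The promoters of 9 of the 10 markers were found in the table, of which all 9 held CCAAT and 5 held both elements. Of 94 mitotic genes in the 6 lists described below, 74 were matched, and 46 of these (62.2%) held TTTGAA and 37 (50%) held both elements. By contrast, 1 of 18 matched sarcomere promoters (5.56%) and 2 of 18 matched replication promoters (11.1%) held TTTGAA. The other element, CCAAT, was in 48 of the 74 mitotic promoters (64.9%) but also in 61.1% of the replication and 38.9% of the sarcomere promoters. A match describes the letters of the window and is not a measured binding site. The markers Cdc20 (chr4:118437294-118437593, minus strand) and Plk1 (chr7:122159185-122159484, plus strand) and the list genes Ube2c (chr2:164769679-164769978, plus strand) and Racgap1 (chr15:99651607-99651906, minus strand) hold both elements, Ccnb1 (chr13:100786437-100786736, minus strand) holds CCAAT alone, and Birc5 (chr11:117848987-117849286, plus strand) holds neither. Capitals mark the matches, and each sequence is the RefSeq reference, 5′ to 3′ on the gene's strand.

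Ccnb1: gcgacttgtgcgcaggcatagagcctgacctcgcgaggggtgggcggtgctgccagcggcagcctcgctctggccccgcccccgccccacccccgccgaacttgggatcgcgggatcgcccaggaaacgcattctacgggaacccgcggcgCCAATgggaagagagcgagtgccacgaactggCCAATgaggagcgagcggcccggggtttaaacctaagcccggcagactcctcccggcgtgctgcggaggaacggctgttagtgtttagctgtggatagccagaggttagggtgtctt
Cdc20: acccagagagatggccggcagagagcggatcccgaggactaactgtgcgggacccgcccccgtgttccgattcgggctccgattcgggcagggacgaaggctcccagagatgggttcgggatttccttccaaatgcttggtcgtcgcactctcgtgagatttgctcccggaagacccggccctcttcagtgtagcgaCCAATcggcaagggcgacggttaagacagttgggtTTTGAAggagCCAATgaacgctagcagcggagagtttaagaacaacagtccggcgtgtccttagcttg
Plk1: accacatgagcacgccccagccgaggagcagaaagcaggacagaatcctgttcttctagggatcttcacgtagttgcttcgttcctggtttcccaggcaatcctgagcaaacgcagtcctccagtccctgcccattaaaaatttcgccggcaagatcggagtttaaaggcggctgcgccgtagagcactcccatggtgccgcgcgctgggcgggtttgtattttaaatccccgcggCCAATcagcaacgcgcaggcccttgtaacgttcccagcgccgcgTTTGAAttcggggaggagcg
Ube2c: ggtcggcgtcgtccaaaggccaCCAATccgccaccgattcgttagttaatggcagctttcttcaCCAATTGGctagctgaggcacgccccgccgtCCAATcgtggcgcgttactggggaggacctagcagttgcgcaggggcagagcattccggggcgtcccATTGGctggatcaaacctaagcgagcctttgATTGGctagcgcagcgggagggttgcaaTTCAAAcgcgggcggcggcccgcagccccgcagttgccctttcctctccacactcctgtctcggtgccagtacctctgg
Racgap1: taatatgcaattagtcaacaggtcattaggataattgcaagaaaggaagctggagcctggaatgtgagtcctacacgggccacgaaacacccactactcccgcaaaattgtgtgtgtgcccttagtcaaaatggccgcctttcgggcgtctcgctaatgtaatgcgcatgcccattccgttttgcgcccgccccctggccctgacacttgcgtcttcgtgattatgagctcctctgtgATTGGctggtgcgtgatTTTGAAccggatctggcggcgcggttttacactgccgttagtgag
Birc5: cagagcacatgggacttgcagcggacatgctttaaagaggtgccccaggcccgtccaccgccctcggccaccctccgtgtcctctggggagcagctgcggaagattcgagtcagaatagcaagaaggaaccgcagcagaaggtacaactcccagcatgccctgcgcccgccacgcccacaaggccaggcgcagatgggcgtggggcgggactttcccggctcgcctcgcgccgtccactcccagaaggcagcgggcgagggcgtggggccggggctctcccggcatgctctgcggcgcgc

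The share of mitosis-marker CMs was far higher among 4n than among 2n CMs at each age, was lowest at P1, and was high again at P5. Among 4n CMs the rule chose 944 of 4880 CMs at E16.5 (19.3%, Clopper-Pearson interval 18.2 to 20.5), 162 of 4747 at P1 (3.41%, 2.91 to 3.97) and 618 of 3654 at P5 (16.9%, 15.7 to 18.2). Among 2n CMs it chose 119 of 5699 at E16.5 (2.09%, 1.73 to 2.49), 13 of 7340 at P1 (0.177%, 0.0943 to 0.303) and 52 of 4413 at P5 (1.18%, 0.881 to 1.54). The intervals of the 4n and the 2n library did not overlap at any age, and those of P1 lay below those of both other ages in either ploidy. The 4n to 2n ratio of shares was 9.26 at E16.5 (7.32 to 11.8, the widest range that both exact intervals allow), 19.3 at P1 (9.63 to 42.1) and 14.4 at P5 (10.2 to 20.6). The members of the P1-2n library numbered 13, with 51496 UMIs in total. Their single genes are thus shown for that library only in the plot of gene levels and among ratios that turned sign with processing. These genes also enter the medians over the 6 libraries by which the leading genes were ranked.

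The UMIs per cell differed between the libraries, and between mitosis-marker and marker-negative CMs within them, which bears on the shares. The 4n marker-negative CMs had medians of 1915.5, 3007 and 4449 UMIs in order of age, while the 4n mitosis-marker CMs had 3214, 5805.5 and 5388. In the 2n libraries the medians of mitosis-marker against marker-negative CMs were 3121 and 2156 before birth, 4329 and 1809 at P1, and 5952.5 and 3663 at P5. When each CM was thinned to 2000 UMIs and shallower CMs were left out (2142, 998 and 167 of the 4n libraries in order of age), the 4n shares were 15.5% (424 of 2738) at E16.5, 1.23% (46 of 3749) at P1 and 6.28% (219 of 3487) at P5. Of the 2n libraries 2244, 4133 and 446 CMs were left out, and the thinned shares were 1.10% (38 of 3455), 0.125% (4 of 3207) and 0.252% (10 of 3967). The P1 libraries were lowest with and without thinning, but the distance between P5 and E16.5 depended on it, and in 2n the thinned intervals of P1 (0.0340 to 0.319%) and P5 (0.121 to 0.463%) overlapped. The ratio of P5-4n to E16.5-4n was 0.874 (0.767 to 0.996) with all UMIs and 0.406 (0.325 to 0.504) at 2000 UMIs, but 1.03 (0.874 to 1.22) when 5 of the 10 markers were asked for.

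**Figure D1:**
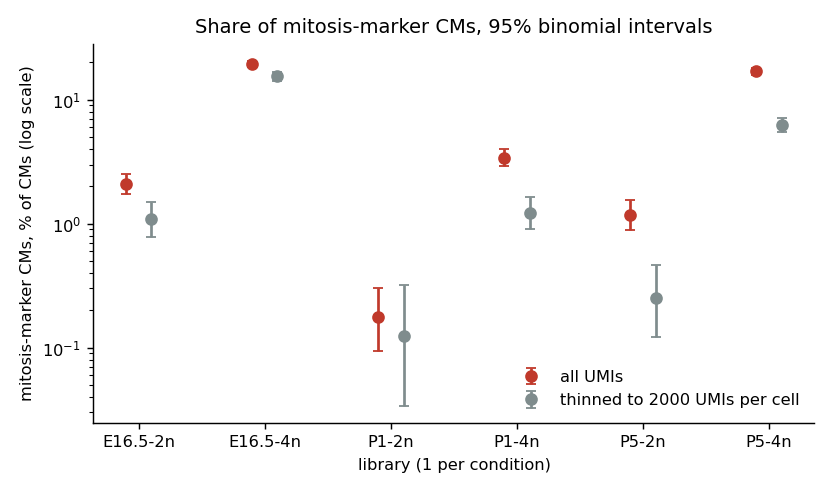
Mitosis-marker CMs as a percent of the CMs of each library (y axis, log scale), with all UMIs (red) and after thinning to 2000 UMIs per cell (grey). Points are the shares of single libraries and bars their 95% binomial intervals, which cover counting error only. E16.5-4n and P5-4n sit at 19.3 and 16.9% with all UMIs but at 15.5 and 6.28% after thinning, and both P1 libraries are the lowest of their ploidy.

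The number of markers per cell showed no gap at the threshold. At least 1 of the 10 markers was detected in 53.2% of E16.5-4n, 12.2% of P1-4n and 41.7% of P5-4n CMs, and in 18.1%, 3.09% and 11.6% of the 2n CMs in order of age. Just inside the threshold, with 4 markers, were 365 CMs of E16.5-4n, 58 of P1-4n and 171 of P5-4n, and just outside it, with 3 markers, were 443, 64 and 224. In the 2n libraries the CMs with 4 and with 3 markers numbered 65 and 118 before birth, 9 and 14 at P1, and 24 and 46 at P5. In E16.5-4n the CMs with 4 markers had a median of 2657 UMIs and those with 3 markers 2269, while in P5-4n the medians were 4828 and 4547.5. The highest number of markers in 1 cell was 8 in P1-4n and 9 in E16.5-4n, and 2 CMs of P5-4n had all 10.

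**Figure D2:**
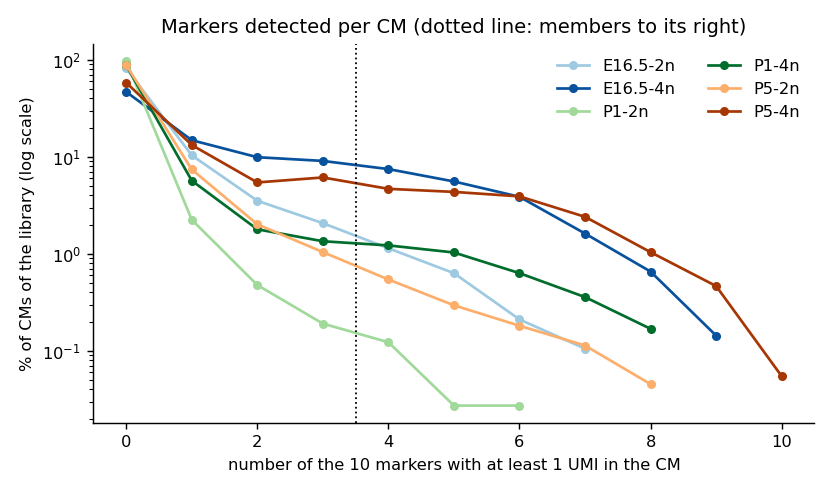
Percent of the CMs of each library (y axis, log scale) by the number of the 10 markers detected in the cell (x axis). Each line is 1 library, and the dotted line separates the mitosis-marker CMs on its right. The E16.5-4n and P5-4n lines lie above the others at 4 markers and more, with 365 and 171 CMs at 4 markers, and no line breaks at the threshold.

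The 14 genes of the rule chose the cells, so their levels are given as a description alone. The levels are counts per 1000000 UMIs (CPM): the gene's UMIs summed over the cells of a group, divided by all UMIs of that group and multiplied by 1000000. Ccnb1, which encodes the main mitotic cyclin, stood at 610, 333 and 372 CPM in the 4n mitosis-marker CMs in order of age, and at 459 CPM in those of E16.5-2n and 213 in those of P5-2n. Cdc20, the anaphase-promoting complex activator, stood at 602, 348 and 417 CPM in the 4n libraries in order of age, and Cenpf, a kinetochore protein, at 498, 193 and 284. Plk1, the polo-like kinase, stood at 228, 119 and 140 CPM. These 4 genes were highest at E16.5 in the 4n libraries and lowest at P1. In the 4n libraries Troap and Pif1 were detected least often. Pif1, a DNA helicase, had a UMI in 9.43% of the members of E16.5-4n and 15.0% of those of P5-4n, against 87.5% and 85.1% for Ccnb1. The 4 CM genes of the rule were present in every member and abundant, Tnni3 for instance at 3913 CPM in E16.5-4n and 8291 in P5-4n.

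Genes of mitosis that the rule did not use were higher in mitosis-marker than in marker-negative CMs of the same library in each of the 5 libraries compared. Of the 94 genes in 6 lists (mitotic entry, checkpoint and kinetochore, spindle, cytokinesis, chromosome condensation, and anaphase and exit), 48 of the 53 with a mean CPM of the 2 groups of at least 50 were at least 2-fold higher in E16.5-4n, while 4.75% of all 2567 genes past this filter were. The count was 36 of 40 in E16.5-2n (4.03% of 2559 genes), 34 of 38 in P1-4n (4.46% of 2130), 34 of 38 in P5-2n (8.06% of 2096) and 38 of 42 in P5-4n (6.93% of 2036). None of the tested mitotic genes was at least 2-fold lower in these 5 libraries, where the background of genes at least 2-fold lower was 0.234% and 0.954% in the E16.5 and P5 libraries of 2n CMs and 1.13%, 0.657% and 0.393% in the 4n libraries in order of age. A gene with few UMIs in the marker-negative CMs passes the filter only through its level in the mitosis-marker CMs, so these counts describe the genes that passed and support nothing further. The median log2 ratio over the tested mitotic genes was 3.08, 3.83 and 3.81 in the 4n libraries in order of age, and 2.66 in E16.5-2n and 3.65 in P5-2n. Marker-negative CMs taken at a like depth gave medians of 3.25, 3.77, 3.90, 2.64 and 3.66 in the same order.

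Among mitotic entry genes, Ccna2 (chr3:36564865-36572150, in the GENCODE annotation of GRCm38, as are the gene positions below), which encodes cyclin A2, had the largest median ratio over the 6 libraries of all 1698 genes tested in each. Its level was 419 CPM in mitosis-marker against 38.5 in marker-negative CMs of E16.5-4n, 232 against 6.06 in P1-4n, and 363 against 12.6 in P5-4n. In the 2n libraries it was 360 against 19.8 CPM at E16.5 and 235 against 7.19 at P5. The members were above the marker-negative CMs by a log2 ratio of 3.44 (3.23 to 3.66) in E16.5-4n and of 5.26 (4.92 to 5.61) in P1-4n, the extremes of these 5 libraries. Cdk1, the kinase that cyclin A2 and cyclin B1 activate, was at 686 against 78.5 CPM in E16.5-4n, 432 against 18.2 in P1-4n and 553 against 23.6 in P5-4n.

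Kinetochore and chromosomal passenger genes followed. Spc25, a subunit of the Ndc80 complex that grips microtubules, was at 449 against 40.2 CPM in E16.5-4n, 336 against 8.37 in P1-4n and 427 against 17.8 in P5-4n. Birc5, which encodes survivin, was at 765 against 83.9, 478 against 13.7 and 578 against 33.9 CPM in the same libraries. Cdca8, which encodes borealin and sits with survivin in the chromosomal passenger complex, was at 444 against 44.4, 217 against 5.12 and 279 against 12.5 CPM. For all 3 genes the fold between the 4n libraries with the highest and the lowest level was smaller in the members than in marker-negative CMs, while the difference in CPM was larger.

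Ube2c (chr2:164769898-164778822), the E2 enzyme of the anaphase-promoting complex, was the most abundant of the 8 leading genes in the 4n members. In order of age it stood at 1509, 997 and 1273 CPM in the 4n mitosis-marker CMs, and at 113, 20.5 and 69.3 in the marker-negative CMs. Its 2n members stood lower, at 780 CPM at E16.5 and 675 at P5. Knstrn and Cdca3, which were in none of the lists, were also among the 8 leading genes. Knstrn, a spindle and kinetochore protein, was at 267 against 25.9 CPM in E16.5-4n and 263 against 14.9 in P5-4n. Cdca3, a trigger of mitotic entry, was at 358 against 40.2 and 331 against 24.5 CPM.

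Of the 14 cytokinesis genes, 7 of 8 past the filter were at least 2-fold higher in the mitosis-marker CMs of E16.5-4n (4.75% of all genes), 3 of 4 in P1-4n (4.46%) and 4 of 5 in P5-4n (6.93%), and the exception in each was Rhoa. Racgap1 (chr15:99620496-99651656) was at 288 against 26.1 CPM in E16.5-4n, 181 against 7.0 in P1-4n and 248 against 8.34 in P5-4n. Anln, which encodes the ring scaffold anillin, was at 167 against 13.0, 116 against 2.81 and 153 against 5.06 CPM. Rhoa, the GTPase that drives the ring and serves many other functions in cells, was at 312 CPM in either group of E16.5-4n and at 239 against 203 in P5-4n.

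The mitotic genes also came together within single cells. With each CM thinned to 2000 UMIs, a mitosis-marker CM held a median of 29 of the 94 mitotic genes in E16.5-4n (768 CMs), 24 in P1-4n (160 CMs) and 25 in P5-4n (613 CMs), and a marker-negative CM held 8, 5 and 5. In the 2n libraries the medians were 23 against 7 at E16.5, 20 against 4 at P1 and 21 against 4 at P5. The ranges overlapped: the highest marker-negative CM held 34 of the 94 genes in E16.5-4n and the lowest mitosis-marker CM held 10. Ube2c had a UMI in 92.6% (90.5 to 94.3) of the thinned members of E16.5-4n against 15.3% of marker-negative CMs, in 83.8% against 3.37% in P1-4n and in 86.5% against 10.7% in P5-4n. Top2a, which encodes the topoisomerase that untangles sister chromosomes, was detected in 65.4%, 51.2% and 47.3% of the members of the 4n libraries in order of age, and Ect2 in 19.3%, 11.9% and 7.34%. The share of marker-negative CMs with a UMI of Ect2 was 1.48%, 0.312% and 0.499%. How much of these shares came from free RNA was not tested.

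**Figure D3:**
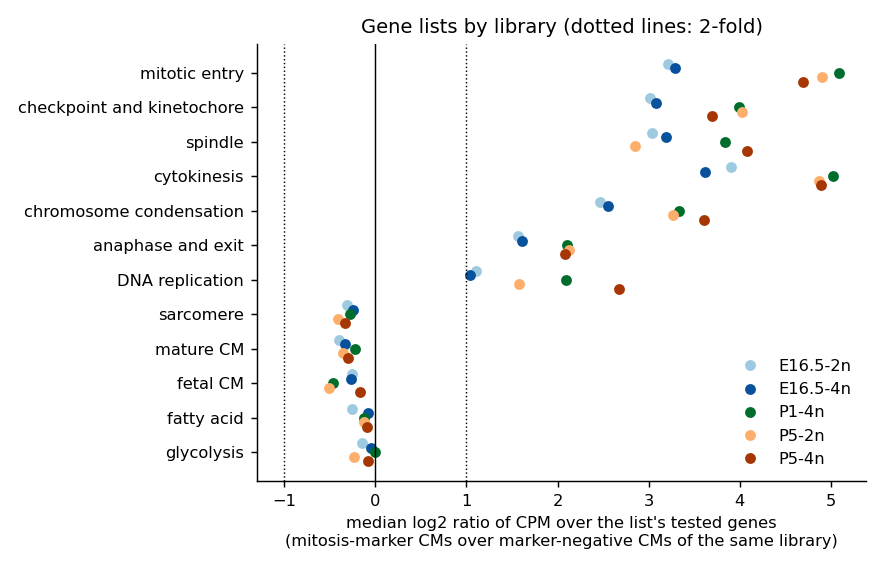
Median log2 ratio of CPM in mitosis-marker over marker-negative CMs of the same library (x axis) for 12 gene lists (y axis), over the genes of each list with a mean CPM of at least 50. Each point is 1 library (P1-2n, with 13 members, is not drawn), and dotted lines mark 2-fold. The mitotic lists lie above 1 in every library drawn, replication between 1.04 and 2.67, and the sarcomere, mature and fetal lists between 0 and -1.

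Replication genes that passed the filter had lower median ratios than the 6 mitotic lists together in the same 5 libraries. The list of 23 genes had a median log2 ratio of 1.04 in E16.5-4n. There 5 of 8 tested genes were at least 2-fold higher, against 4.75% of all genes. The median was 2.09 in P1-4n (4 of 4 higher, against 4.46%) and 2.67 in P5-4n (5 of 5, against 6.93%). In the 2n libraries it was 1.10 at E16.5 (6 of 10, against 4.03%) and 1.58 at P5 (7 of 9, against 8.06%). These genes too can pass through their level in the members alone, and in P5-4n the median of the anaphase and exit list was lower, at 2.08. Rrm2, a subunit of ribonucleotide reductase, led it with 534 against 128 CPM in E16.5-4n, 313 against 18.6 in P1-4n and 493 against 33.4 in P5-4n. Gmnn, which encodes the licensing inhibitor geminin, was at 320 against 155, 267 against 91.9 and 324 against 95.7 CPM. Mcm2, of the replicative helicase, was sparse, at 31.6 against 36.0 CPM in E16.5-4n, 27.9 against 12.3 in P1-4n and 25.9 against 13.3 in P5-4n, and did not pass the filter.

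In E16.5-4n, 11 genes of the list of G1 cyclins and inhibitors were tested. Of these, 3 (Cdkn2c, Cdkn2d and Ccng2) were at least 2-fold higher (4.75% of all genes) and 2 (Ccnd2 and Cdkn1c) lower (1.13%). The counts were 2 higher of 8 in P1-4n (4.46% of all genes) and 2 of 7 in P5-4n (6.93%). They were 2 of 9 in E16.5-2n (4.03%) and 3 of 8 in P5-2n (8.06%). None was lower, where 0.657% and 0.393% of all genes were in P1-4n and P5-4n, and 0.234% and 0.954% in E16.5-2n and P5-2n. Cdkn2d (chr9:21288410-21291407), which encodes the CDK4 and CDK6 inhibitor p19INK4d, was higher in mitosis-marker CMs, at 525 against 113 CPM in E16.5-4n, 347 against 37.7 in P1-4n and 398 against 38.4 in P5-4n. Cdkn2c, of the same family, was at 152 against 19.4, 99.3 against 16.2 and 176 against 16.8 CPM. The same 2 genes were higher in the 2n members, Cdkn2d at 343 against 93.3 CPM at E16.5 and 257 against 29.0 at P5. Ccnd2, which encodes the G1 cyclin D2, was lower in the members of each library: 125 against 268 CPM in E16.5-4n, 115 against 156 in P1-4n, 114 against 185 in P5-4n, 154 against 208 in E16.5-2n and 116 against 206 in P5-2n. Cdkn1a, the p21 gene, was at 63.6 against 55.5 CPM in E16.5-4n and 55.7 against 52.2 in P5-4n, with intervals of the log2 ratio (-0.06 to 0.45 and -0.14 to 0.33) that include 0, but at 91.0 (29 UMIs) against 25.4 CPM in P5-2n. In centrosome genes, 1 of 2 tested genes was at least 2-fold higher in E16.5-4n (4.75% of all genes). None passed the filter in P1-4n or P5-4n. Plk4, which starts centriole duplication, was at 46.0 against 9.72 CPM in E16.5-4n and 29.3 against 2.88 in P5-4n.

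Sarcomere genes took a smaller part of the UMIs of mitosis-marker CMs. The 22 genes of the list with the 4 CM genes of the rule held 6.84% of the UMIs of the members against 7.64% in marker-negative CMs of E16.5-4n, 6.87% against 7.82% in P1-4n and 7.03% against 8.80% in P5-4n. The 2n libraries gave 7.19% against 9.09% at E16.5 and 6.91% against 8.97% at P5. The 4 CM genes helped to choose the cells, so these shares are a description alone. Without them the 22 genes stood at 43615 against 49906 CPM in E16.5-4n and 42017 against 48768 in P1-4n. In the 2n libraries they stood at 45792 against 58180 CPM at E16.5 and 43302 against 57040 at P5. The median log2 ratio over the list was -0.25, -0.28 and -0.33 in the 4n libraries in order of age. It was -0.32 in E16.5-2n and -0.41 in P5-2n. In P5-4n 3 of 21 tested genes were at least 2-fold lower (0.393% of all genes), and in P5-2n 3 of 22 (0.954%). None of 21 was in E16.5-4n (1.13%), P1-4n (0.657%) or E16.5-2n (0.234%). Shares of a total are linked, so that a larger part for some genes leaves less for others. Tcap (chr11:98383811-98384953), which encodes the titin cap protein telethonin, was the sarcomere gene among the 8 genes of lowest median ratio. It stood at 329 CPM in mitosis-marker against 518 in marker-negative CMs of E16.5-4n, 349 against 592 in P1-4n and 359 against 915 in P5-4n. The other leading lower genes included Nppb, which encodes B-type natriuretic peptide, at 188 against 395 CPM in E16.5-4n and 269 against 461 in P5-4n but at 232 against 217 in P1-4n, and Pygm, the muscle glycogen phosphorylase, at 63.6 against 126 and 74.7 against 135 CPM in E16.5-4n and P5-4n. Hist1h2bc, Efnb3 and Atcayos, an antisense transcript, were also among the 8. So were the hemoglobin genes Hbb-bt and Hbb-bs of red blood cells, with median ratios of -0.95 and -0.89. Both hemoglobin genes were lower in the members of each 4n library. In E16.5-2n and P5-2n some ratios of the 8 genes were above 0. These were Hbb-bs in E16.5-2n (0.18) and P5-2n (0.14), Hbb-bt in E16.5-2n (0.096) and Atcayos in P5-2n (0.53). Mature and fetal CM genes were both slightly lower in the members, with medians of -0.34, -0.22 and -0.31 for the mature and -0.27, -0.46 and -0.17 for the fetal list in the 4n libraries in order of age. Mitochondrially encoded genes held 8.0% of the UMIs of the members against 8.25% in E16.5-4n, 15.3% against 17.0% in P1-4n and 16.1% against 18.7% in P5-4n.

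Markers of other cell types were compared as well, because droplets can hold free RNA or more than 1 cell. At least 2 UMIs of 36 markers of fibroblasts, endothelial, immune, mural and epicardial cells were found in 21.2% of mitosis-marker and 41.2% of marker-negative CMs of E16.5-4n, in 49.4% and 61.6% of P1-4n, and in 54.5% and 58.8% of P5-4n. In the 2n libraries the order was turned at E16.5, with 18.5% against 8.61%, and was 44.2% against 42.5% at P5. The summed 8 fibroblast markers had a log2 ratio of members to marker-negative CMs of -1.99, -1.20 and 0.04 in the 4n libraries in order of age, and of 1.70 in E16.5-2n and 1.54 in P5-2n. Col3a1, a collagen gene, was the most abundant of them in the 4n libraries, at 74.8 against 313 CPM in E16.5-4n and 102 against 108 in P5-4n. Among endothelial markers Fabp4 was the most abundant, at 134 against 183 CPM in E16.5-4n and 401 against 374 in P5-4n, but at 395 against 66.4 CPM in E16.5-2n and 697 against 294 in P5-2n. The endothelial sum was thus higher in the 2n members, by a log2 ratio of 2.65 in E16.5-2n and 1.30 in P5-2n, and the immune sum stood at 94.1 against 9.82 CPM in P5-2n (30 UMIs in the members). Cdh5, which defines endothelial cells, was at 57.1 against 3.28 CPM in E16.5-2n and 50.2 against 12.7 in P5-2n, but at 13.5 against 30.5 in E16.5-4n and 20.5 against 17.6 in P5-4n, and Pecam1 was at 15.4 against 2.22 and 18.8 against 5.67 in the 2n and 8.05 against 19.8 and 10.9 against 8.83 in the 4n libraries of E16.5 and P5. Ptprc, which defines leukocytes, had 0 UMIs in the members of P5-4n and 3 UMIs in those of E16.5-4n. The erythroid sum, led by Hbb-bs at 2322 against 6254 CPM in E16.5-4n, had a log2 ratio of -1.39 there, -1.22 in P1-4n and -0.38 in P5-4n. It was 0.18 in E16.5-2n and 0.13 in P5-2n. The part of RNA of other cell types in the results was not tested. An alternative setting left out cells that held at least 2 UMIs of the 36 markers. In it the mitotic lists had median log2 ratios of 3.10, 4.63 and 3.98 in the 4n libraries in order of age. Their medians were 2.84 in E16.5-2n and 4.14 in P5-2n. The medians of all genes in the same libraries lay between 0.01 and 0.09. No doublets were removed. Of 30652 distinct barcodes 499 occurred in more than 1 library, and 74 mitosis-marker CMs had a barcode that another library also held, none of which marked a member in both libraries.

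Between E16.5 and P5 the 4n mitosis-marker CMs differed in genes of maturation, which the rule did not use. Of 2399 genes past the filter 64 (2.67%) were at least 2-fold higher and 183 (7.63%) at least 2-fold lower at P5, with a median log2 ratio over all genes of -0.25, against which the values below are read. The split moved with the scaling: by median of ratios 125 genes were higher and 96 lower, and with a total that left out the 50 most abundant genes 149 and 146. The erythroid sum differed as well, at 4887 CPM in the members of E16.5-4n and 1306 in those of P5-4n, a log2 ratio of -1.90 (-1.95 to -1.86) against -2.91 in marker-negative CMs, and its part in the other values was not tested. The 2n members, with 52 cells at P5, gave 95 (3.82%) and 308 (12.4%) of 2488 genes, with 181 and 156 by median of ratios and 253 and 269 without the top 50 genes.

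Mature CM genes were higher at P5 in the 4n mitosis-marker CMs, 9 of 11 tested genes by at least 2-fold (2.67% of all genes), with a median of 1.48. The fetal genes were lower, 8 of 9 (7.63% of all genes), with a median of -2.14. Marker-negative 4n CMs gave 8 of 11 with a median of 1.44 and 7 of 9 with -2.48, where 3.15% and 16% of 2190 genes were past 2-fold, and these use the same libraries. Myh6 (chr14:54941921-54966927), the adult alpha myosin heavy chain, stood at 246 CPM in the members of E16.5-4n, at 1998 in those of P1-4n and at 2546 in those of P5-4n, a log2 ratio of P5 to E16.5 of 3.37 (3.27 to 3.48) against 3.23 in marker-negative CMs. Myh7 (chr14:54970684-54994626), the fetal beta heavy chain, stood at 3039, 532 and 95.5 CPM, a log2 ratio of -4.99 (-5.15 to -4.84) against -4.13. The 2 myosins were exchanged in the members as in the other CMs, and most of the difference in Myh6 CPM was present at P1.

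Among the other leading higher genes of the members at P5, Myom2, which encodes a protein of the sarcomere M line, was at 10.6, 98.5 and 117 CPM in the 4n members in order of age, and Ckmt2, the mitochondrial creatine kinase, at 112, 280 and 688. Pdk4, the kinase that shuts off pyruvate dehydrogenase, was at 20.7, 82.8 and 126 CPM, with a ratio of 2.60 in the members against 1.85 in marker-negative CMs. Acsl1, which activates long-chain fatty acids, was at 58.1, 281 and 335 CPM, with 2.53 against 1.98. The fatty acid list had 9 of 18 tested genes at least 2-fold higher and none lower (median 1.06, and 1.06 in marker-negative CMs). The glycolysis list had 1 higher, Pdk4, and 4 lower of 18 (median -0.63). Of all genes 2.67% were higher and 7.63% lower. Tuba4a, a tubulin gene, and Fabp3-ps1, a pseudogene whose reads may come from Fabp3, were also among the leading genes.

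Of the 8 leading lower genes of the members at P5, 4 were in the fetal list (Myh7, Myl4, Myl7 and H19). Myl4, the fetal atrial light chain, was at 1512, 94.1 and 52.0 CPM in the 4n members in order of age, and Myl7, another atrial light chain, at 535, 91.5 and 39.7. The imprinted H19 RNA was at 763, 246 and 30.7 CPM and Mest, also imprinted, at 536, 185 and 52.0. Cdkn1c, the imprinted gene of the CDK inhibitor p57, was at 107, 14.8 and 4.80 CPM. Gpc3, a glypican, and Sfrp1, a secreted Wnt inhibitor, had log2 ratios of -4.64 and -3.60. Of the G1 cyclin and inhibitor list 6 of 11 tested genes were at least 2-fold lower (7.63% of all genes) and none higher (2.67%). The 6 were Cdkn1c, Btg2 (-2.58), Btg1 (-1.48), Ccnd3 (-1.34), Cdk4 (-1.25) and Ccng2 (-1.08).

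As a group the mitotic genes of the 4n members lay near the median of all genes between E16.5 and P5. Members of both ages were chosen by their mitotic markers, which bears on the genes expressed with these, so that the values are a description. Of 66 tested mitotic genes none was at least 2-fold higher and 6 were at least 2-fold lower in the members of P5-4n than of E16.5-4n, a share close to the 7.63% of all genes, with a median log2 ratio of -0.39 against -0.25 for all genes tested. In marker-negative 4n CMs, chosen for the lack of these markers, 20 mitotic genes were tested and had a median of -0.91. By median of ratios 3 of the members' genes were lower and the median was -0.14 against 0. The 6 genes lower by CPM were Ect2, the exchange factor that switches on RhoA at the division plane, Nusap1, a spindle microtubule protein, Fbxo5, the inhibitor of the anaphase-promoting complex also called Emi1, the condensin genes Ncapg and Smc2, and Sgol1, which guards sister chromatid cohesion. Ect2 (chr3:27097222-27153878) stood at 106, 48.8 and 36.3 CPM in the 4n members in order of age, a log2 ratio of P5 to E16.5 of -1.55 (-1.84 to -1.26). Nusap1 (chr2:119618298-119651244) stood at 272, 141 and 106 CPM, a ratio of -1.35 (-1.53 to -1.18). Both were higher in the members of E16.5-4n than of the other 4n libraries, and the intervals of both ratios lie below -0.25. In the 2n members, with 42 UMIs of Ect2 at E16.5 and 15 at P5, its ratio was -0.97 (-1.93 to -0.09), and that of Nusap1 was 0.22 (-0.39 to 0.82).

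Other mitotic genes had their own ratios of P5 to E16.5 in the 4n members. Of the cytokinesis genes Racgap1 had a ratio of -0.22 (-0.35 to -0.09), Anln of -0.13 (-0.30 to 0.04) and Arhgap11a, which encodes a RhoA regulator, of 0.49 (0.32 to 0.67). Ube2c had -0.25, Mki67, the proliferation marker, -0.04 and Cenpa, the centromeric histone, 0.25 (0.17 to 0.32). Over the lists the median was -0.34 for cytokinesis, -0.77 for chromosome condensation, -0.18 for anaphase and exit and -0.11 for replication. When members were chosen after thinning to 2000 UMIs, 68 mitotic genes were tested, of which 1 was at least 2-fold higher and 6 lower. Their median was -0.32 against -0.22 for all genes, of which 263 were past 2-fold either way.

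Between P1 and E16.5 the median of the mitotic genes in 4n members lay below that of all genes, but the number past 2-fold turned on the processing. Of 63 tested genes 14 were at least 2-fold lower and none higher, with a median of -0.72 against -0.23 for all genes, where 122 of 2403 (5.08%) were at least 2-fold lower and 46 (1.91%) higher. By median of ratios 2 of the 63 were at least 2-fold lower, with a median of -0.48 against 0, and 5 of 70 with a total without the 50 top genes, 3 of 64 by means over cells, 4 of 65 without cells that held UMIs of other cell types and 3 of 67 with members chosen at 2000 UMIs (median -0.31 against -0.17). With 5 of 10 markers 16 of 63 were lower, and a CPM of at least 20 gave 17 of 81 and 1 UMI in each group 20 of 94. Over all genes the number past 2-fold either way was 168 in the main setting. It was 131 by median of ratios, 187 without the top genes, 172 by means over cells, 186 without other cell types and 214 at 2000 UMIs. It was 198 with 5 of 10 markers, 401 at a CPM of at least 20 and 2580 with 1 UMI in each group. From P1 to P5 none of 54 tested mitotic genes was past 2-fold in either direction (median 0.27), while 13 of 2191 genes (0.593%) were higher and 24 (1.1%) lower. Kif20b, a kinesin of late mitosis, had a log2 ratio of P1 to E16.5 of -1.68 (-2.19 to -1.21), and Smc2 of -1.32 (-1.60 to -1.05).

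**Figure D4:**
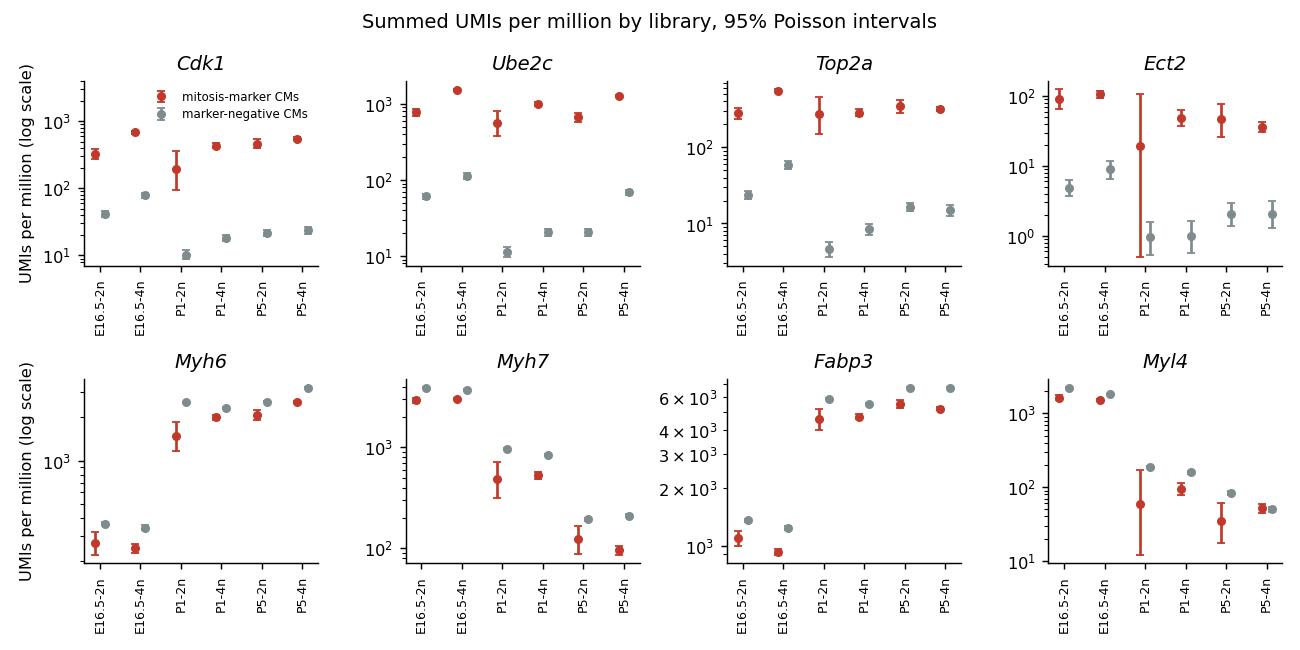
Levels of 8 genes in CPM (y axis, log scale) in mitosis-marker (red) and marker-negative CMs (grey) of each library (x axis). Points are sums over the cells of 1 library and bars are 95% Poisson intervals of the counts. Cdk1, Ube2c, Top2a and Ect2 have higher points in the mitosis-marker CMs of every library (Ect2 with 1 UMI in those of P1-2n), while Myh6, Myh7, Fabp3 and Myl4 follow age in both groups.

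Between ploidies, the number of genes of the mitosis-marker CMs past 2-fold depended on the choice of cells and filter. It was 22 at E16.5 and 30 at P5, but 39 and 77 without cells that held UMIs of other cell types, 35 and 92 with a total without the 50 top genes, and 158 and 426 with members chosen at 2000 UMIs. At E16.5, 15 of 2621 genes (0.572%) were at least 2-fold higher and 7 (0.267%) lower in the 4n members. Of 65 tested mitotic genes 5 were at least 2-fold higher and none lower, with a median log2 ratio of 0.44: Aurka, the kinase of centrosomes and spindle poles (1.27, 0.82 to 1.76), Nusap1 (1.20), Prc1, which bundles the microtubules of the midzone (1.13), Kif20b (1.09) and Cdk1 (1.06). The count was 9 of 63 with 5 of 10 markers, 11 of 67 without cells that held UMIs of other cell types and 12 of 68 with members chosen at 2000 UMIs, with medians of 0.53, 0.47 and 0.38. Over all genes 57, 39 and 158 were past 2-fold either way at these settings, against 22 in the main one. Replication genes had a median of -0.13, with Slbp, the histone mRNA binding protein of S phase, at -1.19 (-1.58 to -0.79). At P5, 10 of 2226 genes (0.449%) were higher and 20 (0.898%) lower. Of 56 tested mitotic genes Cenpa was at least 2-fold higher (1.00, 0.75 to 1.27), none was lower, and the median was 0.26. By median of ratios none was past 2-fold, without cells that held UMIs of other cell types 1 was higher and 1 lower of 61, and with members chosen at 2000 UMIs, which left 10 in P5-2n, 7 were higher and 2 lower of 61. Over all genes 31, 77 and 426 were past 2-fold either way at these settings, against 30 in the main one. The replication gene Pcna, the sliding clamp, was at least 2-fold lower in the 4n members of P5 (-1.17, -1.61 to -0.71), and the median of the replication list was -0.55. Beside these, the marker-negative CMs gave 4n to 2n ratios of -1.46 for Pcna and 1.04 for Cenpa at P5. The 2n members of P5 numbered 52 and those of E16.5 119, which sets the width of these intervals.

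Of the transcription factors that the study followed up, those picked through these libraries are no independent evidence. The study added Sp1 for its earlier link to CM cell cycling. Most of the factors were sparse in the mitosis-marker CMs. Of 11 genes 2 passed the filter between P5-4n and E16.5-4n, and Egr1, an immediate early gene, was at least 2-fold lower at P5, at 97.5, 87.1 and 37.1 CPM in the 4n members in order of age. E2f1 (chr2:154559407-154569892), which drives S phase genes, was higher, at 9.20 (32 UMIs), 17.4 and 25.9 CPM (97 UMIs) in the same order, a log2 ratio of 1.49 (0.90 to 2.12) against -0.94 in marker-negative CMs. Mycn was at 30.5, 11.3 and 8.0 CPM, a ratio of -1.93 (-2.57 to -1.33). Zeb1 was at 27.0 (94 UMIs), 13.9 and 17.3 CPM (65 UMIs), a ratio of -0.64 (-1.12 to -0.17), with -0.96 in marker-negative CMs. E2f1, Mycn and Zeb1 did not pass the filter. Of the Hippo genes, Tead1, which encodes the DNA-binding partner of YAP, was at 94.6, 87.1 and 92.3 CPM in the members and did not differ by 2-fold between the ages.

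The mitosis-marker CMs had a median maturation score that differed from that of the marker-negative CMs beside them by 0.16 at most, in P5-4n. A score per cell, the log2 ratio of the UMIs of 12 mature to those of 10 fetal genes with 1 added to each, had a median of -0.14 in members and -0.10 in marker-negative CMs of E16.5-4n, 2.13 and 2.08 in P1-4n, and 2.96 and 2.80 in P5-4n. The 2n medians were -0.19 and -0.05 before birth and 2.94 and 2.92 at P5, with 2.03 and 2.13 at P1. The difference of 0.16 in P5-4n (0.06 to 0.24) was 0.02 (-0.08 to 0.15) when members were chosen after thinning, where the 10 members left in P5-2n gave -0.43 (-1.76 to 0.40). Past 1.35, the midpoint between the marker-negative medians of E16.5-4n and P5-4n, were 8 of 944 members of E16.5-4n, 144 of 162 of P1-4n and 612 of 618 of P5-4n, against 11 of 2284, 3537 of 4166 and 2052 of 2129 marker-negative CMs. None of the 119 members of E16.5-2n was past it, which allows a share of up to 2.52% by 3 counts of the total. The Clopper-Pearson upper limit is 3.05%.

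**Figure D5:**
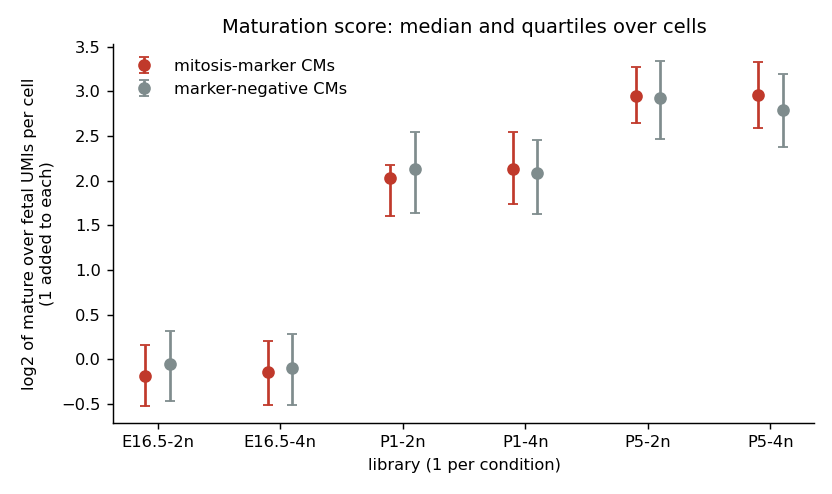
Maturation score per cell (y axis, log2 of mature over fetal UMIs, 1 added to each) in mitosis-marker (red) and marker-negative CMs (grey) of each library (x axis). Points are medians over cells and bars the quartiles. Both groups move together from near 0 at E16.5 to medians of 2.96 and 2.80 in P5-4n.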

How the data were processed

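Each library pooled 3 sorts before droplet capture with the 10x 3′ chemistry. The authors demultiplexed and counted the reads with Cell Ranger and STAR against GRCm38, without a version given in the sources used here, and deposited them as raw UMI counts of 27998 genes in each cell, without normalization. The submitters' notes also name Seurat 2.3.0. The authors' table of fold changes between clusters and their list of gene symbols were not used here. From the counts, UMIs were summed over the cells of a group and divided by their total to give CPM. Log2 ratios carry the exact interval of the binomial split, shares Clopper-Pearson intervals, levels Poisson intervals and medians intervals from order statistics. Genes with a mean CPM of the 2 groups of at least 50 were compared, without the 14 genes of the rule, and 2-fold was the limit for counting a gene. A floor of 3 UMIs stood in for 0. No test was made. The members and the gene lists were chosen with earlier results of these data known. Named genes are those of the rule and of the lists and the 8 of largest ratio each way. For members against marker-negative CMs these were taken by the median over the 6 libraries, among genes past the filter in all 6. For ages they were taken by the P5 to E16.5 ratio of 4n members, among genes past the filter in both ploidies with the same sign in both. Some genes that these rules name are not reported here. Alternatives were thinning to 1000 or 2000 UMIs per cell, 3 or 5 of the 10 markers, 3 of 6 markers, CM filters at 2 UMIs or none, other scalings, means over cells, other CPM minimums, marker-negative CMs of like depth or with at most 1 marker, and CMs without other cell types. Choosing the members at 2000 UMIs was added after the data were seen. The code was tested on simulated data and ran under Python 3.11.15 with numpy 2.4.6, scipy 1.17.1, pandas 2.3.3 and matplotlib 3.10.9.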

Additional observations from a re-analysis of the deposited data

Results flagged for a closer look

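The summed immediate early genes, which respond within minutes to stress and growth signals, were lower in mitosis-marker CMs at E16.5 and higher at P5. Their log2 ratio of mitosis-marker to marker-negative CMs was -0.128 for 2n and -0.328 for 4n CMs at E16.5 but 0.855 for 2n and 0.395 for 4n CMs at P5, and the difference between the ages was not tested. At P1 it was -0.241 (-0.763 to 0.236) for 2n and -0.312 (-0.402 to -0.222) for 4n CMs. With members chosen after thinning to 2000 UMIs the E16.5 and P5 ratios were, in the same order, -0.586, -0.333, 0.225 and -0.0882, so that the direction in P5-4n turned with this choice of members, in which the cells, their number and their depth all differ. Against marker-negative CMs of like depth the P5-4n ratio was 0.523. These ratios are of sums, and few genes of the list passed the filter at P5, 4 in P5-2n and 3 in P5-4n. By median of ratios, with all genes at 0, the median of the tested genes was 0.60 in P5-2n and 0.15 in P5-4n. At E16.5, 8 genes passed in either ploidy, with medians of -0.19 for 2n and -0.46 for 4n CMs. Outside the CM filter, among 423 cells that lacked a UMI of at least 1 of the 4 CM genes, 6 had at least 4 of the 10 markers (1.42%, 0.522 to 3.06), of which E16.5-4n held 4 and E16.5-2n and P5-2n 1 each.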

How the results depend on the processing

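Each condition has 1 library without a replicate number in the labels, so that no replicate could be left out, and a fit of ploidy with the 3 ages as pairs was not made. Thinned to 1000 and to 2000 UMIs, the ratios of shares were 13.5 and 14.1 for 4n to 2n at E16.5, 20.8 and 24.9 at P5, 0.0405 and 0.0792 for P1 to E16.5 in 4n, 0.342 and 0.406 for P5 to E16.5 in 4n, and 0.222 and 0.229 in 2n. P5 to P1 was 8.44 in 4n at 1000 UMIs and 2.02 in 2n at 2000. The 4n to 2n ratio at E16.5 was 6.83 with 3 of 10 markers, 12.5 with 5 of 10 and 12.1 without other cell types, where P5 to P1 in 4n was 3.81. With 5 of 10 markers P5 to E16.5 in 4n turned to 1.03. The other 55 ratios of shares stayed within the interval of the main value.

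Counts of genes at least 2-fold either way were 109 and 151 for members against marker-negative CMs of E16.5-2n and E16.5-4n, 109 for those of P1-4n, and 189 and 149 for those of P5-2n and P5-4n. For members they were 168 for P1 and 247 for P5 against E16.5 in 4n, 403 for P5 against E16.5 in 2n, and 22 and 30 for 4n against 2n at E16.5 and P5. In this order a CPM of at least 20 gave 337, 312, 243, 584, 336, 401, 570, 1081, 136 and 250, at least 100 gave 59, 87, 60, 86, 80, 89, 124, 178, 11 and 6, and at least 1 UMI in each group gave 2363, 2094, 2275, 3078, 2326, 2580, 3021, 2959, 1876 and 2279. Members chosen at 2000 UMIs, an alternative added after the data were seen, gave 260 for E16.5-2n, 224 for P1-4n, 617 for P5-2n, 782 for P5 against E16.5 in 2n, and 158 and 426 between ploidies at E16.5 and P5. Means over cells gave 164 in P1-4n and 34 between ploidies at E16.5. Without other cell types the counts were 192 in P1-4n and 39 and 77 between ploidies, with 5 of 10 markers 57 and 52 between ploidies, and without the 50 top genes 308 in P5-2n and 35 and 92 between ploidies. The other 54 counts stayed within 1.5 times.

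Some medians and genes turned sign, most of them in groups of few members. In 2n members the immediate early median of P1 to E16.5 became 0.81 at 2000 UMIs, the fibroblast median became -0.75 with a CPM of at least 20 and also with 1 UMI in each group, and -0.92 from P1 to P5 by means over cells. The erythroid median became -0.16 from P1 to P5 in 2n with 5 of 10 markers and -0.24 between ploidies at P1 at 2000 UMIs. Members against marker-negative CMs became 0.15 for Hist1h2bc in E16.5-2n, 0.33 for Hbb-bt and 0.76 for Efnb3 in P1-2n at 2000 UMIs, 0.42 for Efnb3 in P1-2n with 5 of 10 markers, -0.21 for Hbb-bs in E16.5-2n without other cell types and 0.058 for Hbb-bs in P5-4n at like depth. The maturation difference at 2000 UMIs became -0.43 for the 2n and 0.022 for the 4n library of P5. The cause was not tested. The small number of members in P1-2n, 13, limits what that library can show.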
